A study of Homo sapiens with 4 samples.

Results

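The cholesterol and fatty acid synthesis genes comprise 33 genes chosen by name for their place in these pathways, of which 30 could be read among the 19775 genes represented on the arrays. The choice was made with earlier results of these data known, so counts set against all genes are descriptions only. The 33 genes fall into a sterol branch of 18 enzymes, a fatty acid branch of 9 genes, 5 genes of sterol sensing, and STARD4, a cytosolic carrier of sterols. Only probe sets annotated to a single gene were used, 65 in all for these genes, and where a gene had several, the one with the highest mean level was used. FDFT1, CYP51A1 and FADS1 were not read: 0 probe sets were listed to FDFT1, while the 2 of CYP51A1 and the 3 of FADS1 were also listed to another gene. The sterol branch was therefore read through 16 enzymes and the fatty acid branch through 8 genes.

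Cholesterol is built from acetyl-CoA through mevalonate and squalene, and fatty acids are built from the same acetyl-CoA by carboxylation, chain synthesis, elongation and desaturation. Both branches are controlled by the membrane-bound transcription factors encoded by SREBF1 and SREBF2, whose escort protein SCAP carries them to the Golgi when membrane sterols are low, and which INSIG1 and INSIG2 hold in the endoplasmic reticulum when sterols are plentiful. SREBF2 is known mainly for the sterol genes and SREBF1 mainly for the fatty acid genes, and INSIG1 is itself a target of these factors.

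The study compared 2 pairs of modified human colorectal cancer cell lines on 4 Affymetrix arrays, with 1 array per group. The groups were HCT116-CDX1 and HCT116-Vec, both derived from HCT116 colon carcinoma cells, and LS174T-siCDX1 and LS174T-siVec, both derived from LS174T colon adenocarcinoma cells. CDX1 encodes a homeobox protein that acts in the intestinal lining, and the title of the series asks about its control of cytokeratin 20. The group names were read as added CDX1, empty vector, silencing of CDX1 and its control, since the labels gave no constructs, promoters, culture times or numbers of clones.

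The deposited values were RMA levels on the log2 scale, and the median over all probe sets lay between 7.04 and 7.06 on the 4 arrays. The Pearson correlation over probe sets was 0.988 between the HCT116 arrays, 0.989 between the LS174T arrays and 0.935 between the arrays LS174T-siVec and HCT116-Vec, as a description across features of 1 array each. For 18 hybridisation control probe sets, which read RNAs added in known amounts, the largest absolute difference was 0.35 between the HCT116 arrays, 0.17 between the LS174T arrays and 0.36 between the lines. These controls carry hybridisation noise only and leave out variation of culture and RNA preparation, so a difference past them is not shown to exceed the spread of the cells. CDX1 itself had a level of 8.24 on the array labelled HCT116-CDX1 and 8.21 on HCT116-Vec, so this probe set did not bear out the label, and every direction given for HCT116 rests on the label alone. In the LS174T arrays CDX1 was at 9.06 in LS174T-siCDX1 and 10.46 in LS174T-siVec. KRT20, the cytokeratin of the series title, was at 9.38 on the array labelled HCT116-CDX1 and 6.36 on HCT116-Vec, and at 5.45 on LS174T-siCDX1 and 8.15 on LS174T-siVec. All 7 colorectal epithelial markers examined were at 6 or more on every array, and the summed marker levels of fibroblast (10.4 to 10.5), endothelium (9.79 to 9.89) and hepatocyte (9.47 to 9.54) differed little between arrays. The summed level of the 5 leukocyte markers read was 11.5 to 12.0 in LS174T and 8.99 to 9.03 in HCT116, through LYZ, at 11.25 to 11.74 in LS174T and 4.97 to 5.21 in HCT116.

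Upstream sequence is shown for INSIG1, MSMO1 and STARD4, which had the largest differences within HCT116, for FDPS, which differed strongly between the lines, and for SREBF2, which encodes the regulator itself. Each window holds the 250 bases before the annotated start in RefSeq assembly GRCh38.p14, 5′ to 3′ on the strand of the gene, at chr7:155297628-155297877 (plus strand) for INSIG1, chr4:165327419-165327668 (plus) for MSMO1, chr5:111512536-111512785 (minus) for STARD4, chr1:155308616-155308865 (plus) for FDPS and chr22:41832855-41833104 (plus) for SREBF2. Capitals mark the CCAAT box on either strand (CCAAT or ATTGG), the letters bound by NF-Y, a factor known to act beside the sterol regulators; the E-box CACGTG in INSIG1; and the core of the sterol element, TCACNCCAC on either strand, in SREBF2.
INSIG1: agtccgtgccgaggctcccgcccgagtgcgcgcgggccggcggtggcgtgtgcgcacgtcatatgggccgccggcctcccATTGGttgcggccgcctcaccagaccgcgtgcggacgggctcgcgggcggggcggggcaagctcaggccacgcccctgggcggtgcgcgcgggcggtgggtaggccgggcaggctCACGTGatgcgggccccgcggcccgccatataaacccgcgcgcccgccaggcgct
MSMO1: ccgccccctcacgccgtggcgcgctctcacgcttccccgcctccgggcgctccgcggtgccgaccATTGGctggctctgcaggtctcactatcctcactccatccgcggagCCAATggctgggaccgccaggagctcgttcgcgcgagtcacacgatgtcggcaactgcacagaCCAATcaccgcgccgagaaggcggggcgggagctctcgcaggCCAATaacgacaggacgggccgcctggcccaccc
STARD4: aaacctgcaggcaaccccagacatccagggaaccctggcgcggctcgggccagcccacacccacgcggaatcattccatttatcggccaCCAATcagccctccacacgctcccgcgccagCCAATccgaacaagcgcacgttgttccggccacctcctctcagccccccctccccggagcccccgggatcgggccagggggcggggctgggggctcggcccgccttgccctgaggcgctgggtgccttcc
FDPS: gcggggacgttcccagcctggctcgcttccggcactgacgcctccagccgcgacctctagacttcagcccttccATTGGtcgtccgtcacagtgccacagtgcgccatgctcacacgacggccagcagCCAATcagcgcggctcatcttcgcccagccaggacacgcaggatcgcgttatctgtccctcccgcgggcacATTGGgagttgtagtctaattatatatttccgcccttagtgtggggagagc
SREBF2: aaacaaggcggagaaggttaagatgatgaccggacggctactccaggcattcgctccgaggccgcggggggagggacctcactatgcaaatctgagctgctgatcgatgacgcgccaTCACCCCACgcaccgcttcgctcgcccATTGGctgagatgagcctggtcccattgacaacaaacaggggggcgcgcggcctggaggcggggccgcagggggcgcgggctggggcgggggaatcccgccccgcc
MSMO1 held 4 CCAAT boxes, FDPS 3, STARD4 2, and INSIG1 and SREBF2 1 each. Upstream windows were found for 29 of the 33 genes; ACAT2, FASN, FDFT1 and SQLE had none in the table. A CCAAT box lay in at least 1 window of 20 of these 29 genes (69.0%), against 37.0% of all 27305 genes in the table and 39.7% of those read on the arrays. Within the list the box was present for 13 of 15 sterol branch genes (86.7%), 4 of 8 fatty acid genes and 2 of 5 sensing genes. By window, the share was 24 of 42 for the listed genes (57.1%) and 32.0% for all 35116 windows. The exact core TCACNCCAC occurred only for SREBF2 among the 29 genes, against 1.09% of all genes and 0.883% of all windows, and the E-box CACGTG occurred for INSIG1, SC5D and SCAP, against 7.73% of all genes and 6.34% of all windows. No match overlapped another in the windows printed, and a match describes the letters in the window, not binding.

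In HCT116, most synthesis genes were higher on the array labelled HCT116-CDX1 than on HCT116-Vec. A gene was called changed where its difference was at least 1 on the log2 scale, which is 2-fold, and where the brighter array was at 6 or more. By this rule INSIG1, MSMO1, STARD4 and SQLE rose and 0 of the 30 fell, while 0.916% of the 16914 genes measured rose and 0.97% fell. The difference was above 0 for 28 of the 30 genes (26 with array medians made equal), with a median of 0.44, against 48.95% of all genes measured and a median of -0.01. With 1 array per group no p-value was computed. Less RNA per cell and fewer expressing cells cannot be told apart in RNA from whole cultures.

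Among the sensing genes, INSIG1, the sterol-dependent brake on the pathway, had a level of 11.26 on the array labelled HCT116-CDX1 and 10.09 on HCT116-Vec, a 2.26-fold difference. SREBF2 was at 11.01 on the array labelled HCT116-CDX1 and 10.19 on HCT116-Vec, a log2 difference of 0.82. SREBF1 stood at 10.78 on the array labelled HCT116-CDX1 and 9.98 on HCT116-Vec, a difference of 0.80. Both regulator genes thus missed the 2-fold rule and exceeded the largest difference of a hybridisation control, whereas the escort SCAP (0.15) and the second retention gene INSIG2 (0.02) lay within it.

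In the steps from squalene to cholesterol, MSMO1, the oxidase that starts removal of the methyl groups at carbon 4, was at 12.06 on the array labelled HCT116-CDX1 and 10.92 on HCT116-Vec, a 2.20-fold difference. SQLE, the squalene epoxidase, was at 12.02 on the array labelled HCT116-CDX1 and 11.00 on HCT116-Vec, a 2.04-fold difference. DHCR7, which catalyses the last step to cholesterol in one of its routes, was at 11.28 on the array labelled HCT116-CDX1 and 10.38 on HCT116-Vec, just short of the rule at 0.91. These 3 enzymes span the beginning, the middle and the end of the stretch, but the steps between them did not all follow. SC5D, a sterol desaturase, differed by 0.71, TM7SF2, a sterol reductase, by 0.62 and LSS, which closes the sterol rings, by 0.57. HSD17B7 was level at 9.56 on both HCT116 arrays, and NSDHL (-0.17) and EBP (-0.24), the demethylating dehydrogenase and the sterol isomerase, were the genes with a difference below 0 in the values as deposited. The 9 genes of this stretch had a median of 0.62.

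The 7 mevalonate genes were all above 0 in HCT116, with a lower median of 0.16. HMGCS1, the synthase of HMG-CoA, led them with 10.30 on the array labelled HCT116-CDX1 and 9.62 on HCT116-Vec, a difference of 0.68. MVD, a decarboxylase, differed by 0.48 and IDI1, an isomerase of the isoprene unit, by 0.41. The remaining genes, the thiolase ACAT2 (0.07), the kinases MVK (0.16) and PMVK (0.06) and the farnesyl synthase FDPS (0.14), lay within the range of the hybridisation controls.

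STARD4, the sterol carrier, rose 2.15-fold in HCT116, at 11.11 on the array labelled HCT116-CDX1 and 10.01 on HCT116-Vec. It was the only gene outside the enzymes and sensors, and its level on the array labelled HCT116-CDX1 was the highest of the 4 arrays. The same array was the highest of the 4 for 7 of the 30 genes, near the 25.3% of the 17280 genes measured on any array. Besides STARD4 these were SQLE, MSMO1, SREBF2, ACLY, ACACA and SCD.

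The 8 fatty acid genes were all above 0 in HCT116 and none reached 2-fold. ACSS2, which makes acetyl-CoA from acetate, was at 10.51 on the array labelled HCT116-CDX1 and 9.86 on HCT116-Vec, a difference of 0.66. SCD, the stearoyl-CoA desaturase, was at 13.28 on the array labelled HCT116-CDX1 and 12.68 on HCT116-Vec, a difference of 0.61. FASN, the fatty acid synthase, was at 12.22 on the array labelled HCT116-CDX1 and 11.75 on HCT116-Vec, a difference of 0.47. These and LPIN1 (0.38), a phosphatidate phosphatase of triglyceride synthesis, exceeded the hybridisation controls. Differences for ACACA (0.33), the acetyl-CoA carboxylase, ACLY (0.25), the citrate lyase, ELOVL6 (0.19), an elongase, and FADS2 (0.10), a desaturase of polyunsaturated chains, did not. In all, 17 of the 30 genes exceeded the largest control difference upward, against 9.54% of all genes measured.

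**Figure D1:**
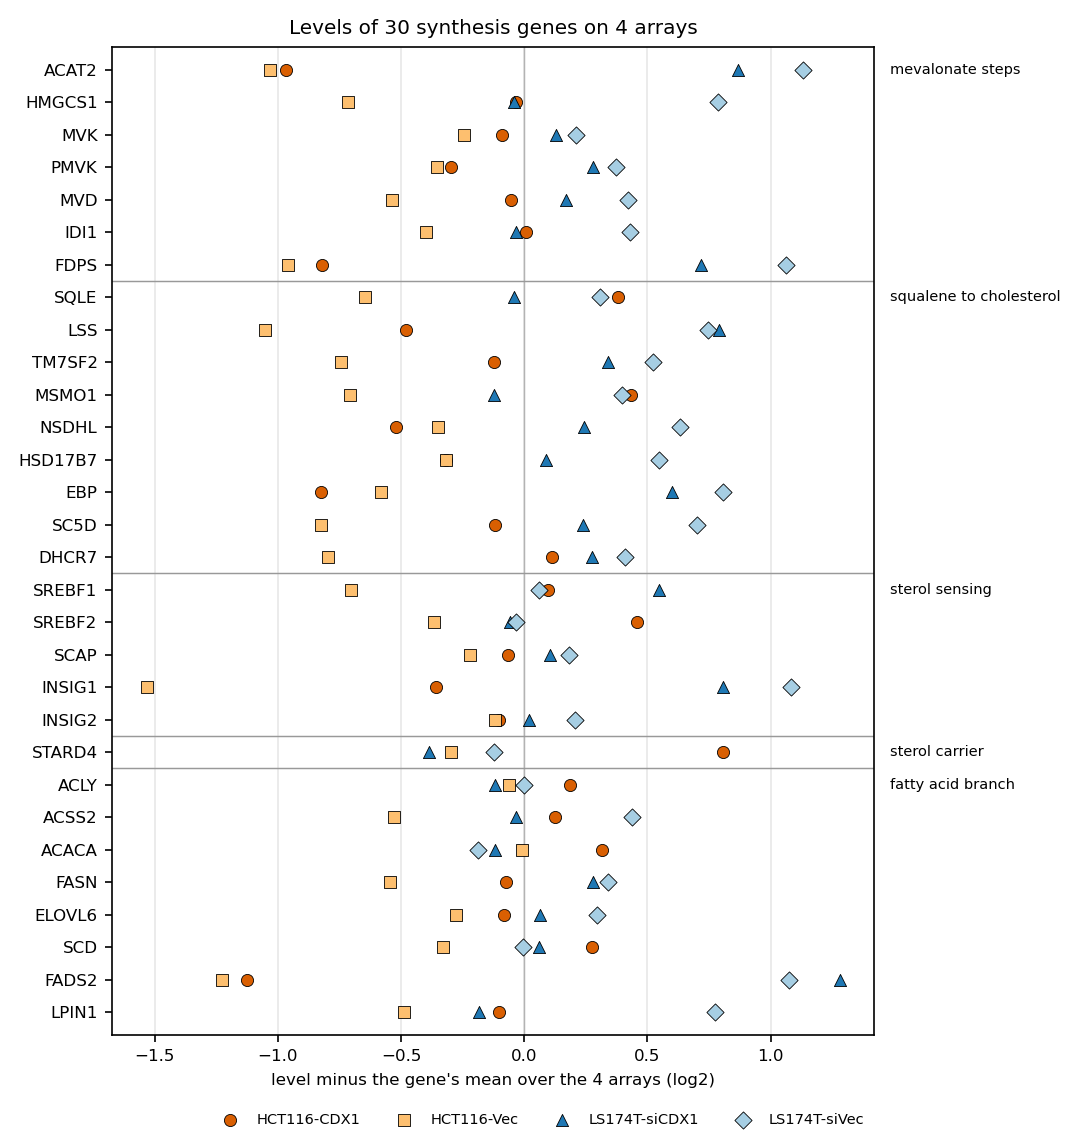
Level of each of the 30 genes on each array, as the log2 level minus that gene's mean over the 4 arrays (horizontal axis), with genes grouped by role and 1 point per array. The HCT116-Vec point is the lowest for 25 of the 30 genes, the LS174T-siVec point is the highest for 20, and STARD4 has its highest point on the array labelled HCT116-CDX1.

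In LS174T, the synthesis genes were mostly lower in LS174T-siCDX1 than in LS174T-siVec, by less than 2-fold throughout. By the 2-fold rule 0 of the 30 genes changed, against 0.598% of the 16896 genes measured that rose and 1.25% that fell. The difference was below 0 for 25 of the 30 genes (22 after quantile normalization), with a median of -0.22. Over all genes measured it was below 0 for 8658 of 16896, with a median of -0.01. The largest control difference was exceeded downward by 18 of the 30, against 20.9% of all genes measured, and upward by SREBF1 and FADS2. The summed level of the epithelial markers was 14.7 in LS174T-siCDX1 and 15.4 in LS174T-siVec. The keratins KRT19 (-1.69, and -0.75 as the mean of its probe sets), KRT8 (-1.49) and KRT18 (-0.54) differed most. CDX2 (-0.35), CLDN7 (-0.30), EPCAM (-0.29) and CDH1 (-0.04) differed less. In HCT116 the sum was 15.36 on the array labelled HCT116-CDX1 and 15.12 on HCT116-Vec. The part of these markers in the differences was not tested.

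LPIN1, the phosphatidate phosphatase, was at 9.08 in LS174T-siCDX1 and 10.04 in LS174T-siVec, 1.94-fold lower and the nearest to the rule. HMGCS1 was at 10.30 in LS174T-siCDX1 and 11.12 in LS174T-siVec, 1.78-fold lower. MSMO1 was at 11.50 in LS174T-siCDX1 and 12.02 in LS174T-siVec, a difference of -0.52. These 3 genes, from the fatty acid branch, the mevalonate steps and the later sterol steps, had the differences furthest below 0. ACSS2 (-0.47), SC5D (-0.46), IDI1 (-0.46), HSD17B7 (-0.46), NSDHL (-0.39), SQLE (-0.35) and FDPS (-0.34) followed.

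By role, 15 of the 16 sterol branch genes were below 0 in LS174T-siCDX1, with a median of -0.30, and LSS was the exception at 0.04. All 7 mevalonate genes were below 0, from -0.08 for MVK to -0.83 for HMGCS1. In the fatty acid branch 5 of 8 genes were below 0, with a median of -0.09, and FASN (-0.06), SCD (0.07) and ACACA (0.07), the core enzymes of fatty acid synthesis and desaturation, were within the range of the controls. As the mean of their probe sets, FASN (0.09) and ELOVL6 (0.02) turned above 0. FADS2 was at 10.61 in LS174T-siCDX1 and 10.41 in LS174T-siVec, a difference of 0.21.

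The sensing genes did not share one direction in LS174T. INSIG1 was at 12.43 in LS174T-siCDX1 and 12.71 in LS174T-siVec, a difference of -0.28, and INSIG2 differed by -0.19. SREBF2 was at 10.50 in LS174T-siCDX1 and 10.52 in LS174T-siVec, a difference of -0.02. SREBF1 was at 11.23 in LS174T-siCDX1 and 10.74 in LS174T-siVec, a difference of 0.48. The second SREBF1 probe set gave 0.57, also upward, so the gene for the factor of the fatty acid branch was higher where most synthesis genes were lower.

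**Figure D2:**
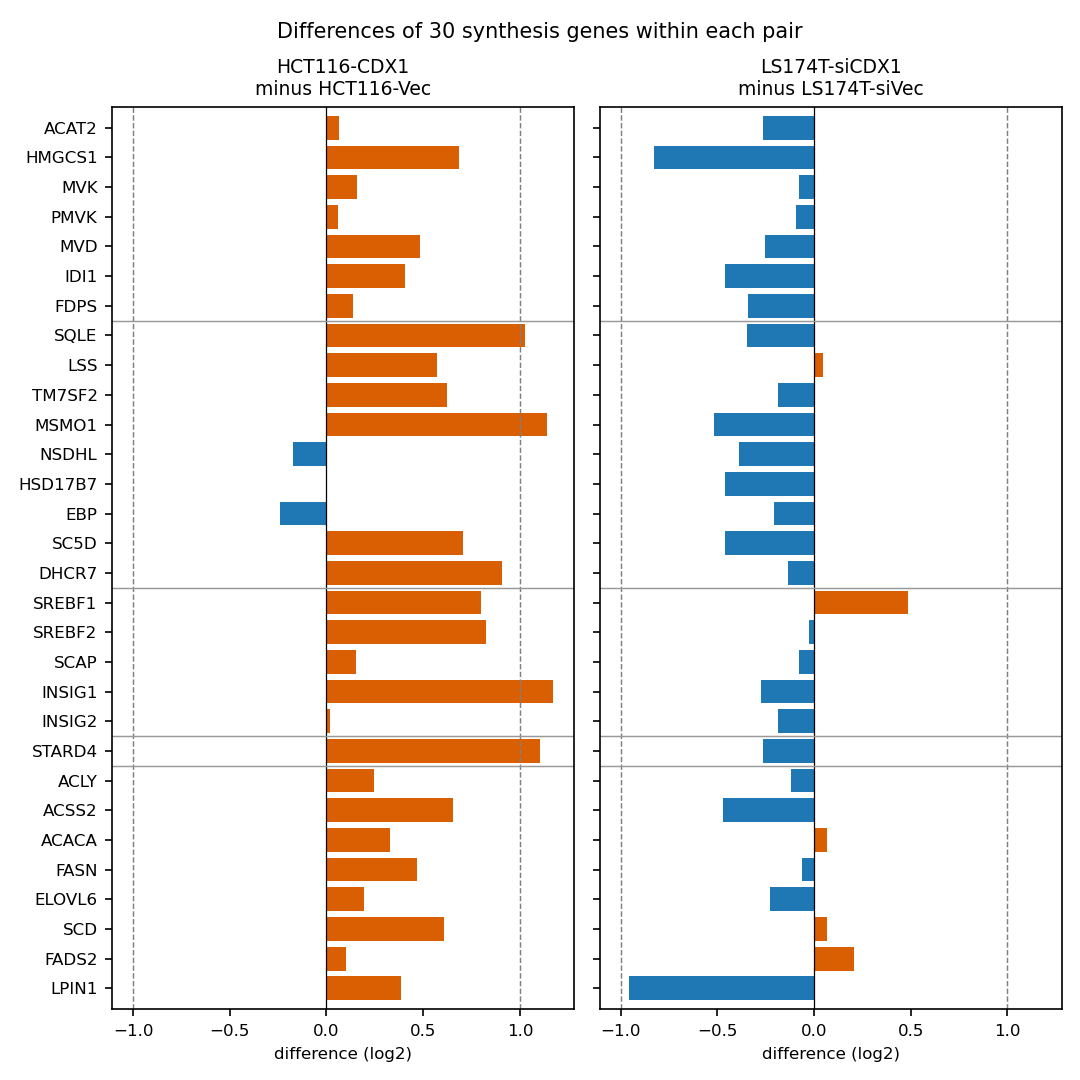
Difference in log2 level for each of the 30 genes, HCT116-CDX1 minus HCT116-Vec (left) and LS174T-siCDX1 minus LS174T-siVec (right), 1 array per group, with dashed lines at the 2-fold rule. Bars point right for 28 genes in HCT116 and left for 25 genes in LS174T, and 4 bars on the left panel and 0 on the right pass a dashed line.

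The pairs share no array, so their directions can be set side by side. A difference above 0 in HCT116 together with one below 0 in LS174T was found for 23 of the 30 genes, against 23.5% of the 16530 genes measured in both pairs. Some of the 23 depended on processing. With array medians made equal, HSD17B7 (-0.02) and INSIG2 (-0.004) turned below 0 in HCT116. After quantile normalization SREBF2 (0.07), FASN (0.004) and SCAP (0.003) turned above 0 in LS174T. For 11 of the 23 genes both differences also exceeded the largest control difference of their pair, against 2.64% of genes measured. They were HMGCS1, MVD and IDI1 of the mevalonate steps, SQLE, TM7SF2, MSMO1 and SC5D of the later sterol steps, INSIG1, STARD4, and the fatty acid genes ACSS2 and LPIN1. Membership of the 11 depended on processing for several. In LS174T, TM7SF2 differed by -0.19, and by -0.09 after quantile normalization. IDI1, at 0.41 in HCT116 and -0.46 in LS174T, was at 0.13 and -0.10 when its probe sets were averaged, and turned to -0.23 and 0.31 without probe sets whose names end in _x_at or _s_at. Under that restriction SC5D was at -0.06 in LS174T. SQLE (1.03 against -0.35) and STARD4 (1.10 against -0.26) had the larger difference in HCT116. NSDHL and EBP were below 0 in both pairs, and LSS, SREBF1, ACACA, SCD and FADS2 were above 0 in both.

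A limma fit over all 4 arrays tested 17280 genes for the CDX1 label and for the line, which leaves 1 residual degree of freedom. The CDX1 term compared HCT116-CDX1 and LS174T-siVec with HCT116-Vec and LS174T-siCDX1, and called 0 of the 30 genes and 0% of all genes at an adjusted p under 0.05. At an unadjusted p under 0.05, 9 of the 30 genes and 518 of all 17280 genes were below the threshold. The estimate was above 0 for 28 of the 30, with a median of 0.26, and was 0.76 ± 0.15 (SE) for HMGCS1 and 0.83 ± 0.21 for MSMO1, each with an adjusted p of 0.999. The share of all genes with an estimate above 0 was not counted. On simulated data the fit called 0% of genes changed by 1 in the line term. The 0 calls here therefore do not show that the genes were unchanged. The samples are single arrays, so these p-values measure only the spread between them.

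Between the lines, the synthesis genes were higher in LS174T-siVec than in HCT116-Vec, and here the differences were large. By the 2-fold rule 12 of the 30 genes rose and 0 fell, against 6.03% and 7.33% of the 17043 genes measured. The difference was above 0 for 29 of the 30, with a median of 0.95, against 50.78% of all genes measured and a median of 0.01. ACACA (-0.18) was the exception. These differences use the array LS174T-siVec of one pair and HCT116-Vec of the other, so they are not independent of the differences within the pairs. Of the 5 leukocyte markers read, LYZ differed between these arrays by 6.28. PTPRC, the pan-leukocyte marker, was at 6.51 in LS174T-siVec and 6.62 in HCT116-Vec. CD3E (0.08), CD14 (-0.06) and ITGAM (-0.03) also differed little. The part of these markers in the result was not tested.

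INSIG1 was at 12.71 in LS174T-siVec and 10.09 in HCT116-Vec, 6.13-fold higher. FADS2 was at 10.41 in LS174T-siVec and 8.11 in HCT116-Vec, 4.93-fold higher. ACAT2, which makes acetoacetyl-CoA, was at 11.78 in LS174T-siVec and 9.62 in HCT116-Vec, 4.48-fold higher. These 3 and FDPS, at 13.16 in LS174T-siVec and 11.14 in HCT116-Vec and 4.05-fold higher, were the 4 genes past 4-fold, a size reached upward by 1.85% of all genes measured. They belong to sensing, polyunsaturated fatty acid synthesis, and the first and last of the mevalonate steps listed.

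The sterol branch was above 0 at all 16 genes read, with a median of 1.15, and 9 of them rose. Besides ACAT2 and FDPS these were LSS (1.80), SC5D (1.52), HMGCS1 (2.83-fold, at 11.12 in LS174T-siVec and 9.62 in HCT116-Vec), EBP (1.39), TM7SF2 (1.27), DHCR7 (1.20) and MSMO1 (1.10). NSDHL (0.98), MVD (0.96) and SQLE (0.95) lay just short of 1. In the fatty acid branch FADS2 and LPIN1 (1.26) rose, and ACSS2 (0.97) and FASN (0.89) fell short of the rule. SCD (0.32), ACACA (-0.18) and ACLY (0.06) lay within the range of the controls, and the median over the 8 genes was 0.73. Among the sensors, INSIG1 stood apart from SREBF1 (0.77), SCAP (0.40), SREBF2 (0.33) and INSIG2 (0.32), and STARD4 differed by 0.18. SREBF2, INSIG2 and STARD4 were also within the range of the controls.

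The order of the arrays was compared gene by gene, since both LS174T arrays lying above both HCT116 arrays does not depend on which array of a line is used. This held for 18 of the 30 genes, against 32.4% of the 17280 genes. It held for 12 of 16 sterol genes, 3 of 8 fatty acid genes (FADS2, FASN and ELOVL6) and 3 of 5 sensing genes (SCAP, INSIG1 and INSIG2). The fatty acid share, 37.5%, lay near that of all genes. For MSMO1, SQLE, IDI1 and HMGCS1 the groups overlapped, because the array labelled HCT116-CDX1 reached or passed LS174T-siCDX1. HCT116-Vec was the lowest of the 4 arrays for 25 of the 30 genes, against 25% of all genes, and LS174T-siVec was the highest for 20, against 25.9%.

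In the limma fit over the 4 arrays, the line term, LS174T minus HCT116, called 9 of the 30 genes, all higher in LS174T. Over all genes fitted, 7.37% were called higher and 8.73% lower. FADS2 had an estimate of 2.35 ± 0.16 (SE) with an adjusted p of 0.0034, ACAT2 one of 2.00 ± 0.15 with 0.00429, and FDPS one of 1.78 ± 0.15 with 0.00559. The others called were INSIG1 (1.89 ± 0.26, adjusted p 0.0161), LSS, EBP, SC5D, HMGCS1 and TM7SF2, with adjusted p-values up to 0.0433. PMVK and NSDHL fell just outside, at 0.0522 and 0.0538. By role, 7 of 16 sterol genes, 1 of 8 fatty acid genes and 1 of 5 sensing genes were called. The estimate was below 0 for STARD4 (-0.51), ACACA (-0.31), ACLY (-0.12) and SREBF2 (-0.09), none of them called. With probe sets averaged, HMGCS1, LSS and SC5D were not called, while ELOVL6, LPIN1 and PMVK were. The other HMGCS1 probe set was at 10.83 on the array labelled HCT116-CDX1 and 9.85 on HCT116-Vec. It was at 9.77 in LS174T-siCDX1 and 10.32 in LS174T-siVec, so the line direction of HMGCS1 depended on the probe set. Each line is represented by 2 arrays of differently modified cells. The test sets the lines against the disagreement between their CDX1-label differences, moderated across all genes fitted, and not against replicate arrays.

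**Figure D3:**
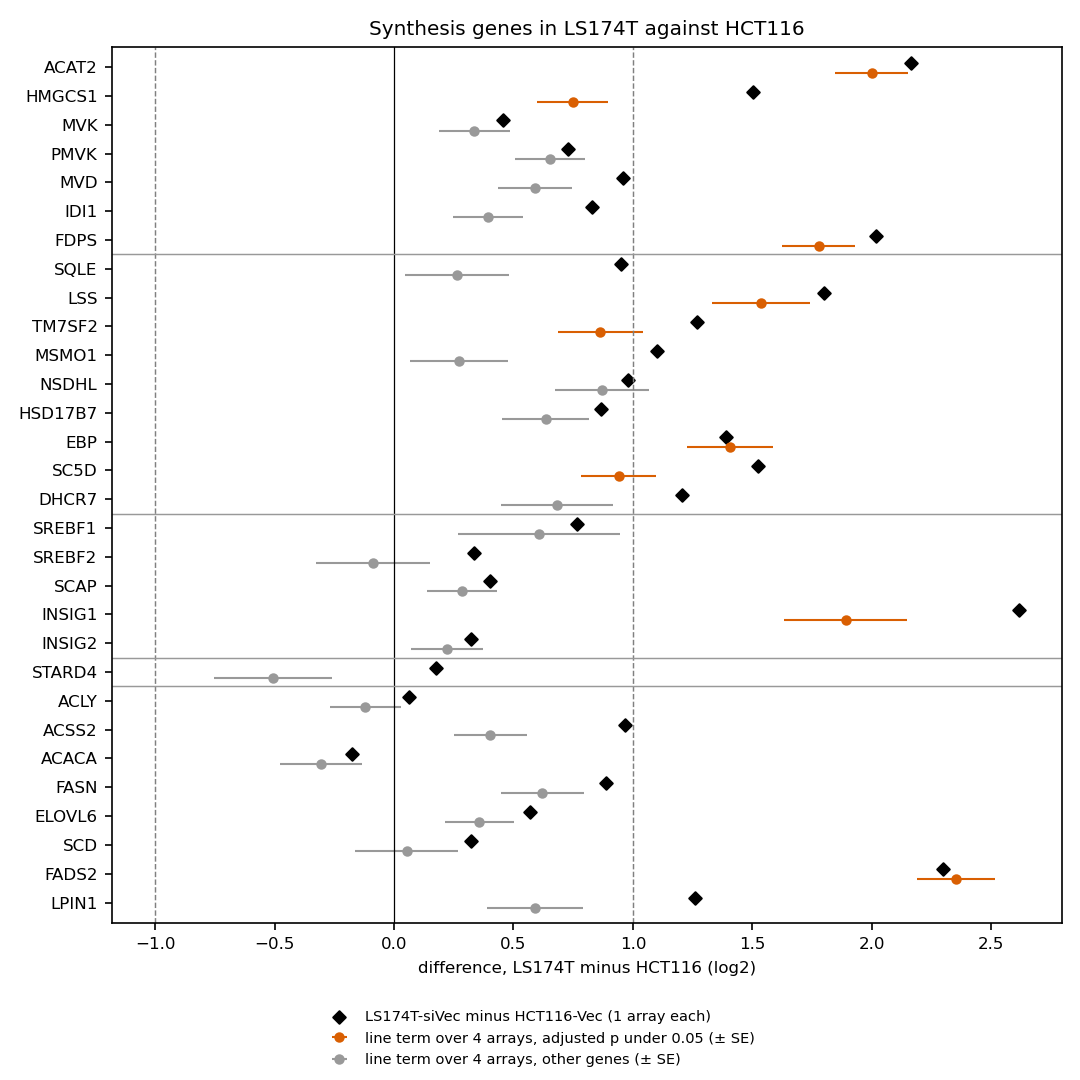
Difference in log2 level between LS174T and HCT116 for each of the 30 genes, as the difference of the single arrays LS174T-siVec and HCT116-Vec (diamonds) and as the limma line term over all 4 arrays with its standard error (circles; orange where the adjusted p is under 0.05). Of the 30 genes, 9 are orange, all to the right of 0, from 0.75 for HMGCS1 to 2.35 for FADS2.

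The branches were compared by their medians. In HCT116 the sterol branch (0.44) and the fatty acid branch (0.35) differed by 0.09, and the order turned to -0.09 when each gene was read as the mean of its probe sets. In LS174T the sterol branch (-0.30) lay further below 0 than the fatty acid branch (-0.09), a gap of -0.21, which was -0.29 with the mean of probe sets. Between the lines the sterol branch (1.15) exceeded the fatty acid branch (0.73) by 0.42, and by 0.13 with the mean of probe sets. Genes within a branch are not replicates, and no test was made of these gaps.

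**Figure D4:**
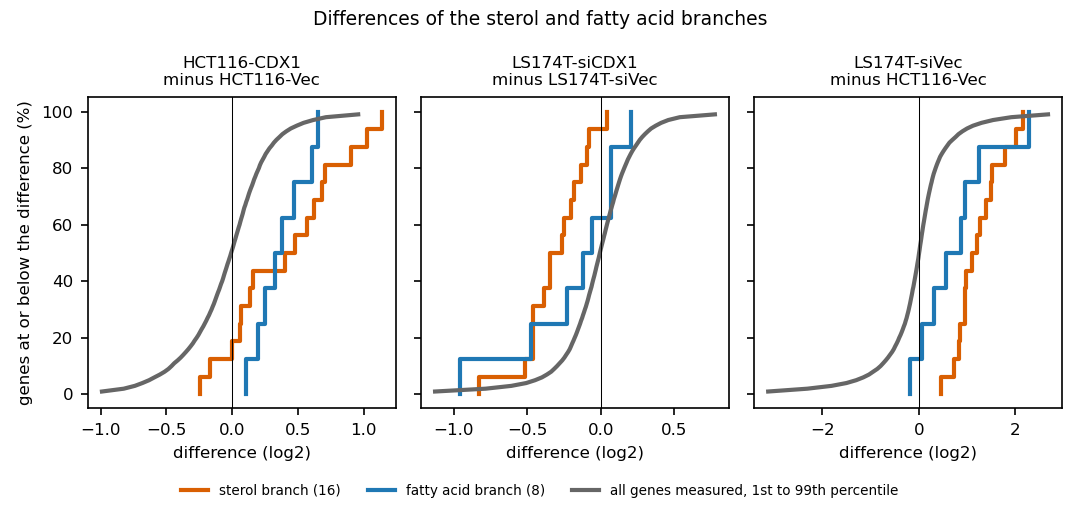
Cumulative share of genes (vertical axis, percent) at or below each difference in log2 level (horizontal axis) for the 16 sterol genes, the 8 fatty acid genes and all genes measured, in the 3 comparisons. The sterol and fatty acid lines lie close together in HCT116, with medians of 0.44 and 0.35, and apart between the lines, with medians of 1.15 and 0.73.

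Of the 30 genes, 19 had several probe sets, which gave the same sign for 16 genes in HCT116, 13 in LS174T and 18 between the lines. SQLE had 4 probe sets, from 0.85 to 1.73 in HCT116, and INSIG1 3, from 0.81 to 1.17 in HCT116 and from 2.37 to 2.62 between the lines. SCD, read at 0.61 in HCT116, ranged up to 1.06. LPIN1 lay between -0.96 and -0.81 in LS174T and between 0.38 and 1.03 in HCT116, with a mean of 0.73 there. IDI1, ACACA and FADS2 had probe sets of both signs in HCT116, and LSS ranged from -0.66 to 2.15 between the lines. The LSS probe set at -0.66 was dim, at 6.23 in LS174T-siVec and 6.89 in HCT116-Vec. In LS174T, IDI1, LSS, EBP, FASN, ELOVL6 and SCD had probe sets of both signs. As the mean of all probe sets the HCT116 difference was 1.22 for SQLE, 1.01 for INSIG1 and -0.12 for ACACA, and the difference between the lines was 1.40 for FADS2, 0.99 for HMGCS1 and 0.73 for EBP, whose 4 probe sets ranged from 0.10 to 1.39. HMGCS1 and EBP then missed the 2-fold rule, which left 10 genes risen between the lines. HSD17B7 was read by 1 probe set of a type whose probes can match other transcripts.

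**Figure D5:**
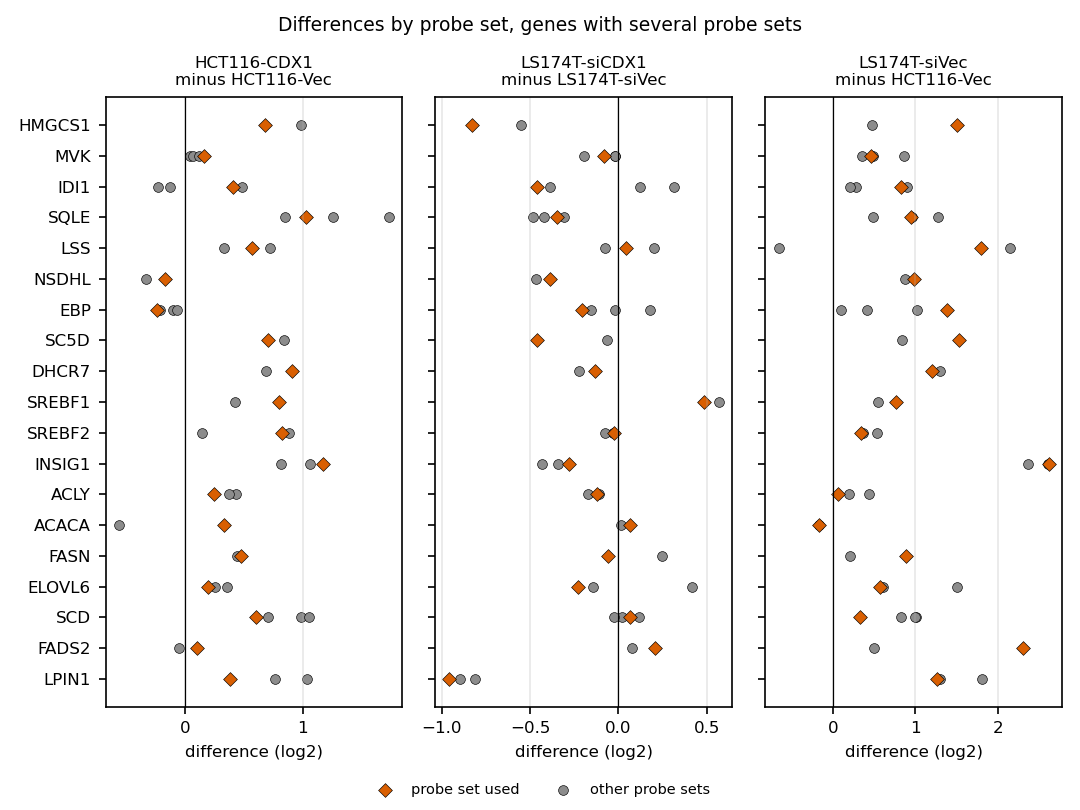
Difference in log2 level by probe set for the 19 genes with several, in the 3 comparisons, with the probe set used as a diamond and the others as circles. All 4 SQLE probe sets lie right of 0.8 in HCT116, all 3 LPIN1 probe sets lie at or left of -0.81 in LS174T, and the LSS probe sets lie on both sides of 0 between the lines.

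A further list of 53 genes of other synthesis steps, sterol traffic and regulation held 44 that were read. In HCT116, 2 of the 42 measured rose, ACSL1 (1.43), an acyl-CoA synthetase, and PPARA (1.09), a nuclear receptor of fatty acid use, and 0 fell, with a median of 0.14 over the list, against 0.916% of all genes that rose. As the mean of its 9 probe sets PPARA differed by 0.35, short of the rule. In LS174T 0 of 41 changed, against 1.85% of all genes, with a median of -0.10. Between the lines 6 of 42 rose and 2 fell, against 6.03% and 7.33% of all genes, with a median of 0.21. ACSL1 (3.24) and PPARA (2.02, and 1.02 averaged over probe sets) were among those that rose. SOAT1, which esterifies cholesterol (-2.17), fell, as did ELOVL7, an elongase, at 5.18 in LS174T-siVec, under the floor of 6 and so with only a bound there, and 9.75 in HCT116-Vec.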

How the data were processed

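Cells of 4 modified colorectal cancer lines were profiled on 1 Affymetrix array each, and samples were grouped by title. The labels' protocols give RNeasy for the total RNA and an Enzo kit for its biotin labelling. The values deposited by the authors were log2 expression of 54675 probe sets, from 3.20 to 14.6, made with RMA per the submitters' processing notes. The version of RMA and the set of arrays it was run on are not given in the sources used here. RMA equalises array distributions, so a shift shared by all genes would not be seen.

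Names came from the platform annotation (41097 probe sets with 1 gene, 1801 with several, 11777 with none), and symbols were matched to RefSeq of GRCh38.p14. The members and lists were chosen with earlier results of these data known. Genes counted as measured if the brighter of the arrays compared reached 6, and as changed at a difference of at least 1, both on the log2 scale. Named genes were all 33 listed genes, CDX1, KRT20, cell type markers, and up to 4 changed genes per comparison from the further pathway list. The fit used limma 3.58.1 in R 4.3.3 with Benjamini-Hochberg adjustment over all 17280 genes, and was tested on simulated data. Tables were handled in Python 3.11.15 with pandas 2.3.3 and numpy 2.4.6, and loess used statsmodels 0.14.6. The comparisons with the hybridisation controls, at 4-fold and by array order were chosen after the values were seen. Upstream sequences came from RefSeq. Alternatives changed the floor, normalization, choice of probe sets, fold and limma settings. The number of arrays limits the precision.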

Additional observations from a re-analysis of the deposited data

Results flagged for a closer look

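SREBF1 moved in opposite ways relative to the CDX1 label in the lines. The array with the higher CDX1 by label minus the other was 0.80 in HCT116 (10.78 on the array labelled HCT116-CDX1 and 9.98 on HCT116-Vec). In LS174T it was -0.48 (LS174T-siVec minus LS174T-siCDX1), with 11.23 in LS174T-siCDX1 and 10.74 in LS174T-siVec. Each direction rests on 1 array per group, and the difference was not tested.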

How the results depend on the processing

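The summary results that moved or changed sign under other settings are given here, and 65 single-gene differences moved by more than 1 SD of the hybridisation controls, 21 of them in LS174T under quantile normalization; the floors could not alter a single-gene difference. Unless a sentence says otherwise, the cause was not tested. Quantile normalization of the 4 arrays gave LS174T medians of -0.13 for all genes listed and -0.23 for the sterol branch. With each gene read as the mean over its probe sets, the HCT116 sterol median was 0.31 and its gap to the fatty acid branch changed sign to -0.094, the LS174T fatty acid median turned to 0.028, and the medians between the lines were 0.97 for sterol and 0.84 for fatty acid genes, a gap of 0.13. Without probe sets whose names end in _x_at or _s_at, 20 listed genes were read: between the lines 6 rose, the medians were 0.67 for all, 0.91 for sterol and 0.53 for fatty acid genes, and the line term called 4. At 1.5-fold, 1603 genes and 12 listed genes changed in HCT116 (35.6% of the 1603 upward), 838 and 2 in LS174T, and 4517 and 21 between the lines. At 3-fold these were 69 and 0 in HCT116 (62.3% of the 69 upward), 129 and 0 in LS174T, and 1114 and 5 between the lines. The line term called 4 to 11 listed genes over all settings, and the CDX1 term 0 in each. The line term of the limma fit blocks the CDX1 comparison by pair, and without it the CDX1 label also called 0 listed genes. No paired analysis was possible by replicate number, because each group had 1 array, and leaving out a replicate could not be run. Signal near background limits only differences of dim genes, and all 30 listed genes were above the floor of 7 by the probe set used. Some other probe sets of these genes, such as those of IDI1 and LSS, were dimmer.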
